A study of Mus musculus with 6 samples.

Results

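The immunity-related GTPases (IRGs) are a family of interferon-inducible GTP-binding proteins. Here 7 genes of the family, Irgm1, Irgm2, Igtp, Iigp1, Tgtp1, Tgtp2 and Gm12250, were followed among the 24965 genes of a deposited expression table. The genes were taken by name: Ensembl identifiers in the table were matched to GENCODE M21 symbols. The libraries hold RNA of donor hematopoietic stem and progenitor cells (HSPCs) recovered from the marrow of recipient mice 6 h after bone marrow transplantation, from 3 WT and 3 Hemgn-/- replicates (KO in the labels). The donors were CD45.2+ mice of a C57BL/6 background, and the Hemgn-/- line, made with zinc finger nucleases, carries the disrupted gene in every cell type, not only in HSPCs. All recipients were CD45.1+ and had received a split dose of 9 Gy, so that both groups share irradiation and transplantation and there is no group without transplantation. The study used young adult mice of both sexes. The labels describe the sorted cells as Lin-Sca-1+ without c-Kit, whereas the design text adds c-Kit, and the sources also differ on the injection route and the library kit. The methods call the replicates biological, but no source says whether a library came from 1 recipient or from a pool.

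Interferons, chiefly IFN-γ, switch on IRG genes in mouse cells. The family is known from cell-autonomous defence, in which the proteins gather on the vacuoles that hold Toxoplasma, Chlamydia and other intracellular pathogens and break them open. It has a pair of branches. The regulatory IRGs (Irgm1, Irgm2 and Igtp, which is also named Irgm3) sit on the cell's own membranes and keep the effectors inactive there, while the effector IRGs (Iigp1 or Irga6, Tgtp1 and Tgtp2 or Irgb6, and Gm12250 or Irgb10) attack the vacuole. Irgm1 is also known in hematopoietic stem cells, where its loss leads to excessive interferon responses and loss of stem cell quiescence.

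Values are FPKM (fragments per kilobase of gene model, scaled to the total of the library), so that levels can be set side by side between genes. The depth, worked out from the step that a single fragment makes in low FPKM values, ranged from 23668015 to 27716574 fragments in WT and from 26175076 to 28897360 fragments in Hemgn-/- libraries. The disrupted gene, Hemgn, measured 5.64, 2.96 and 4.68 FPKM in WT against 0.75, 0.91 and 1.60 FPKM in Hemgn-/- replicates (log2 fold change -1.37, SE 0.23, limma adjusted p = 0.0114). The HSPC label was checked with 12 marker genes, of which none was at 0 in every library and only Mecom was at most 1 FPKM in every library. Their summed level was 217.1 to 226.4 FPKM in WT and 257.0 to 310.2 FPKM in Hemgn-/- libraries, of which Ly6e alone made up 171.5 to 182.0 and 203.8 to 248.1 FPKM, and the other 11 genes 43.78 to 48.24 and 53.24 to 62.07 FPKM. Kit, the receptor c-Kit, was at 6.58 ± 0.581 and 5.68 ± 0.206 FPKM (SD, n = 3). Ly6a, the gene of Sca-1, was at 9.38 ± 1.01 and 14.7 ± 3.01 FPKM, and limma called neither Kit nor Ly6a. Of the 12 marker genes 11 were tested, with 7 higher and 4 lower in Hemgn-/- HSPCs. Limma called 3 of them higher and 0 lower. Transcripts of mature cells were present beside them, moved with genotype and, for neutrophil, B cell and T and NK cell genes, summed to more than the HSPC genes in every library. The summed level of 12 neutrophil genes was 75880 to 81720 FPKM in WT and 49960 to 55350 FPKM in Hemgn-/- libraries, and that of 10 erythroid genes was 462.5 to 550.0 and 32.43 to 51.68 FPKM. It was 1309 to 1378 and 1638 to 1808 FPKM for 12 B cell genes, 301.4 to 340.6 and 375.8 to 396.1 FPKM for 15 T and NK cell genes, 206.0 to 243.5 and 310.8 to 376.1 FPKM for 9 plasmacytoid dendritic cell genes, 184.5 to 190.0 and 167.5 to 177.8 FPKM for 14 macrophage genes, and 17.0 to 17.9 and 18.18 to 21.48 FPKM for 7 endothelial genes. Single genes made up much of some sums. Ngp alone was at 43176 to 46692 FPKM in WT and 26488 to 27961 FPKM in Hemgn-/- libraries of the neutrophil sum. Of the plasmacytoid dendritic cell sum, Spib was at 130.1 to 159.7 and 216.6 to 251.3 FPKM, and Bst2 at 61.3 to 72.0 and 67.3 to 95.5 FPKM. No gene of these lists was at 0 in every library. Of the macrophage genes, 8 were higher and 6 lower in Hemgn-/- HSPCs, with 2 called in each direction by limma: Adgre1 and Csf1r rose (log2 fold changes of 0.51 and 0.50), and C1qb and Vcam1 fell. Higher were 10 of 12 B cell, 13 of 15 T and NK cell and 9 of 9 plasmacytoid dendritic cell genes, with 6, 3 and 4 called higher and 0 called lower. Among the genes counted as higher, Flt3 (HSPC), Siglec1 (macrophage) and Ccr9 (plasmacytoid dendritic cell) were tested only through Hemgn-/- libraries above 1 FPKM. Their place in these counts is thus partly set by that threshold. Lower were 10 of 12 neutrophil and 8 of 9 erythroid genes tested, with 5 of each called lower and 0 called higher. Of all 13739 genes tested, 8653 were higher and 5086 lower, and 4.37% were called higher and 2.09% lower. Macrophages, B cells and T cells can also express IRGs, and the part of such cells in the results was not tested. In these bulk libraries, fewer cells of a type and less RNA per cell cannot be told apart.

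All 7 IRG genes had a higher mean level in Hemgn-/- than in WT HSPCs, by 1.42-fold for Igtp to 2.82-fold for Gm12250. The family summed to 107.7, 119.1 and 116.6 FPKM in WT and to 209.5, 201.8 and 211.9 FPKM in Hemgn-/- replicates. In the comparison with limma across 13739 genes, 6 of the 7 had an adjusted p under 0.05 and were higher in Hemgn-/- HSPCs, where 4.37% of all genes tested were called higher and 2.09% lower. At the study's thresholds of an unadjusted p under 0.05 and a 1.5-fold difference, taken on the log2(FPKM + 1) scale, 3 of the 7 were higher, Gm12250, Iigp1 and Tgtp2, beside 4.10% of all genes tested. That count depends on the scale: it was 5 with a pseudocount of 0.1 or with limma-voom and 7 with FPKM totals set equal (TPM), and the ratios of group means of Irgm2 and Tgtp1 were 1.55 and 1.66. Every Hemgn-/- library lay above every WT library for 7 of the 7, a pattern found in 19.2% of all genes tested. The median log2 fold change of the 7 genes was 0.56, that of all genes tested 0.09. A log2 fold change above 0 was found for 7 of the 7 and for 8653 of the 13739 genes tested. All 7 passed the expression filter, which asks for FPKM above 1 in at least 1 library, and none did so only through its level in Hemgn-/- libraries.

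**Figure D1:**
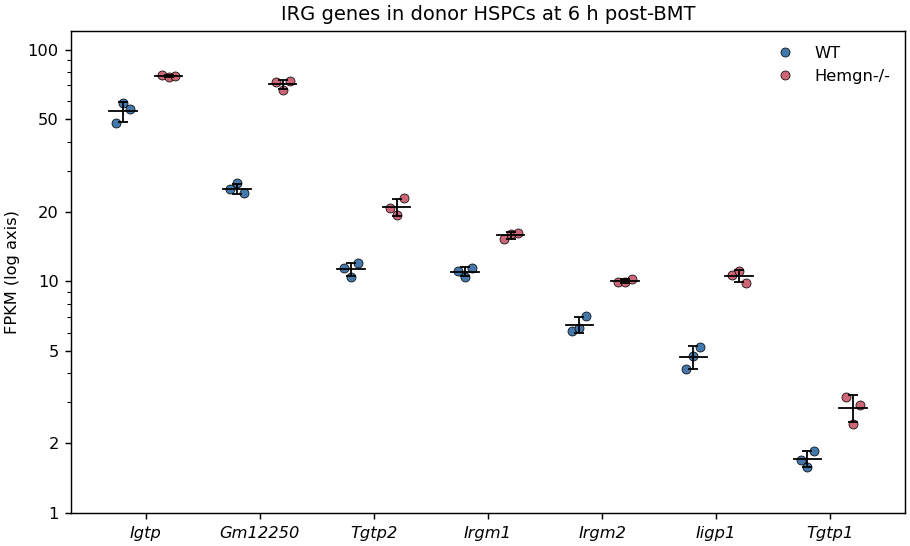
FPKM (log axis) of the 7 IRG genes in the 3 WT and 3 Hemgn-/- libraries, 1 point per library, with a long bar at each group's mean and whiskers of 1 SD. The points of the groups do not overlap for any gene, and the gap is widest for Gm12250, from 23.96 to 26.47 FPKM in WT to 66.96 to 73.15 FPKM in Hemgn-/- libraries.

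The branches of the family differ in the P-loop, the stretch of the GTP-binding domain that wraps around the phosphates of the nucleotide. Its seventh residue is a lysine in nearly all GTPases and in the effector IRGs, but a methionine in the regulatory IRGs. The codons were read from GENCODE M21 transcripts (GRCm38) to sort the members, and those of chromosome 11 are given here, 5′ to 3′, with the codon of the seventh residue in capitals (ATG for methionine, AAG for lysine).
Irgm1: ggggactctggcaatggcATGtca
Irgm2: ggggactctggcaatggcATGtca
Igtp: ggggactctggcaatggcATGtca
Tgtp1: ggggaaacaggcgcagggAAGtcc
Tgtp2: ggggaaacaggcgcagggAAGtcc
Gm12250: ggggagacaggggcagggAAGtcc
These stretches begin at codon 83 of the reading frame in Irgm1 and Irgm2, 91 in Igtp, 63 in Tgtp1 and Tgtp2 and 75 in Gm12250. The 3 regulatory genes carried the same 24 bases, and the 4 effector genes, Iigp1 included, had the lysine codon. Over the whole coding sequence the regulatory genes shared 63% to 67.3% of bases with each other and 49.9% to 52.4% with the effector genes.

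Among the regulatory genes, Irgm1 (ENSMUSG00000046879, minus strand of chromosome 11, 48861968 to 48871683 of GRCm38), which acts on autophagy and on mitochondria as well as on the effectors, was at 11.12, 10.48 and 11.40 FPKM in the WT replicates and at 15.17, 15.99 and 16.14 FPKM in Hemgn-/- replicates. The groups did not overlap, and the lowest Hemgn-/- library was 1.33 times the highest WT library. The log2 fold change of Irgm1 was 0.48 (SE 0.09, limma adjusted p = 0.0159). This call was lost without WT replicate 1 (adjusted p = 0.0554), Hemgn-/- replicate 2 (0.0570) or Hemgn-/- replicate 3 (0.0766) and with limma's eBayes fitted without a trend (0.0544), with a log2 fold change of 0.47 to 0.49 in these.

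Irgm2 (ENSMUSG00000069874, plus strand of chromosome 11, 58199618 to 58222782), a regulator at the Golgi, was at 6.13, 6.28 and 7.05 FPKM in the WT replicates and at 9.92, 9.94 and 10.25 FPKM in Hemgn-/- replicates. The Hemgn-/- libraries lay close together and all above the WT libraries, with the lowest at 1.41 times the highest WT value. Its log2 fold change was 0.56 (SE 0.10, limma adjusted p = 0.0146), and the adjusted p was 0.0577 without WT replicate 1 and 0.0684 without Hemgn-/- replicate 3.

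Igtp (ENSMUSG00000078853, plus strand of chromosome 11, 58199556 to 58207591), a regulator at the endoplasmic reticulum and on lipid droplets, was the most abundant member. It was at 48.19, 58.98 and 55.17 FPKM in the WT replicates and at 77.37, 76.09 and 76.72 FPKM in Hemgn-/- replicates. WT replicate 1 was the lowest library, and the groups did not overlap. The log2 fold change of Igtp was 0.50 (SE 0.09, limma adjusted p = 0.0116). The adjusted p was 0.0588 without Hemgn-/- replicate 3 and 0.0710 without a trend. The annotated models of Irgm2 and Igtp share 162 exonic bases on the same strand, 4.39% of the exons of Irgm2 and 8.01% of those of Igtp, so part of the reads of one may have been counted for the other. The ratio of Igtp to Irgm2 was 7.87, 9.39 and 7.83 in WT and 7.80, 7.66 and 7.49 in Hemgn-/- libraries.

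Among the effectors, Gm12250 (ENSMUSG00000082292), the gene of Irgb10, which acts with guanylate-binding proteins (GBPs) to open the membranes of vacuoles and of bacteria in the cytosol, had the largest difference. It was at 24.94, 26.47 and 23.96 FPKM in the WT replicates and at 72.42, 66.96 and 73.15 FPKM in Hemgn-/- replicates, which stand for 752, 863 and 846 fragments and for 2532, 2233 and 2693 fragments. The lowest Hemgn-/- library was 2.53 times the highest WT library. Its log2 fold change was 1.46 (SE 0.08, limma adjusted p = 2.88e-05), number 46 of the 13739 genes tested in order of increase. GENCODE M21 lists Gm12250 as a single-exon processed pseudogene on the plus strand of chromosome 11 from 58187739 to 58189012, while RefSeq has a protein-coding gene from 58183843 to 58190198 with Irgb10 as a synonym. The FPKM values thus rest on 1274 bases of the longer gene.

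Iigp1 (ENSMUSG00000054072, plus strand of chromosome 18, 60376027 to 60392634), the effector Irga6 and the only member outside chromosome 11, was at 4.17, 4.78 and 5.21 FPKM in the WT replicates and at 10.67, 11.07 and 9.86 FPKM in Hemgn-/- replicates. Each Hemgn-/- value was at least 1.89 times each WT value. The log2 fold change was 1.01 (SE 0.11, limma adjusted p = 0.00204), number 132 in order of increase. Its FPKM gave whole fragments with a gene length of 3121 or 6242 bases but not with the 5823 exonic bases of GENCODE M21, so its level per length rests on another gene model than the one used for the other members.

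Tgtp1 (ENSMUSG00000078922, minus strand of chromosome 11, 48985327 to 48994172) and Tgtp2 (ENSMUSG00000078921, minus strand, 49057194 to 49064206) are near-identical copies that encode the effector Irgb6, which binds the vacuole membrane early. Their coding sequences shared 99.7% of bases. Of all 100-base windows of their transcripts, 73.1% of those of Tgtp1 and 76.8% of those of Tgtp2 were found unchanged in another gene, chiefly in each other, so the split of reads between them is uncertain. Tgtp2 was at 11.42, 10.48 and 11.95 FPKM in the WT replicates and at 20.79, 19.32 and 22.83 FPKM in Hemgn-/- replicates, with no overlap (log2 fold change 0.84, SE 0.10, limma adjusted p = 0.00247). Tgtp1, the least abundant member, was at 1.70, 1.58 and 1.86 FPKM in the WT replicates and at 3.18, 2.43 and 2.93 FPKM in Hemgn-/- replicates. Its groups did not overlap either, but with a log2 fold change of 0.50 (SE 0.15) its adjusted p from limma was 0.0909, and it was not called. On the log2(FPKM + 1) scale the difference of a gene this low is understated: the ratio of its group means was 1.66, against 1.86 for Tgtp2. Taken as 1 feature, Tgtp1 plus Tgtp2 summed to 13.12, 12.06 and 13.81 FPKM in WT and to 23.97, 21.75 and 25.75 FPKM in Hemgn-/- libraries. The sum had a log2 fold change of 0.83 (SE 0.10, limma adjusted p = 0.00254). Tgtp1 took 14.0%, 14.2% and 14.5% of the fragments of the pair in WT and 14.3%, 12.1% and 12.3% in Hemgn-/- libraries, and these shares overlapped.

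**Figure D2:**
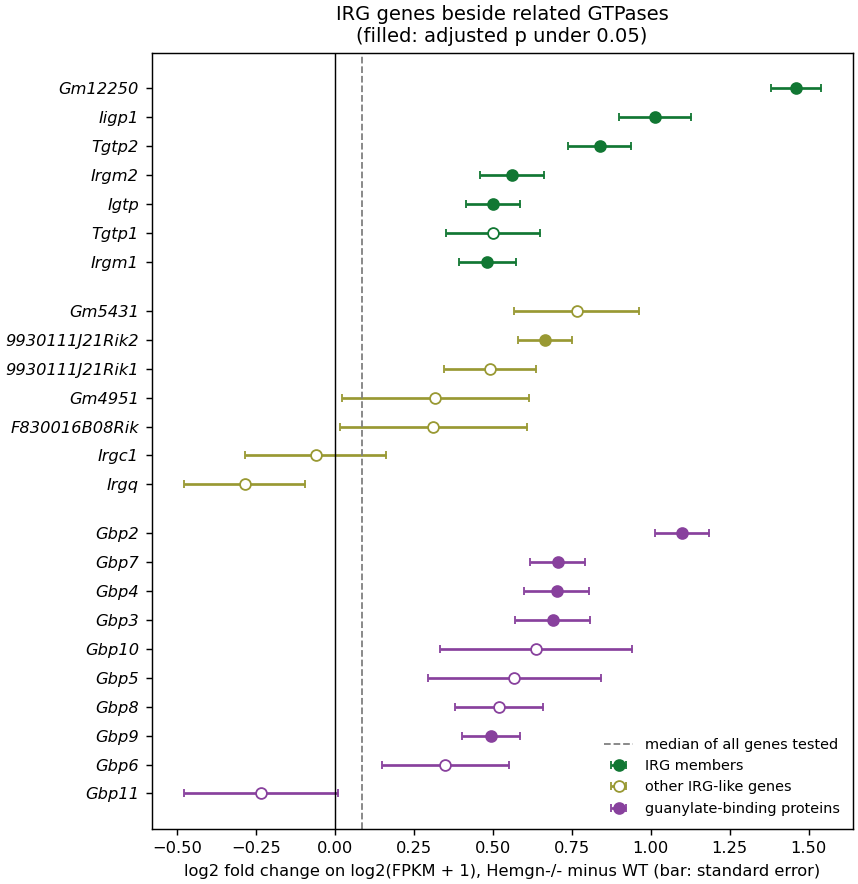
Log2 fold change (Hemgn-/- minus WT, on log2(FPKM + 1)) of the 7 IRG genes, of other IRG-like genes and of guanylate-binding proteins, with bars of 1 standard error and a line at the median of all genes tested. Filled points have an adjusted p under 0.05. Gm12250 stands at 1.46, and the 3 regulatory genes lie between 0.48 and 0.56.

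In WT libraries the mean levels ran from Igtp (54.1 ± 5.47 FPKM, SD, n = 3) over Gm12250 (25.1 ± 1.26), Tgtp2 (11.3 ± 0.744), Irgm1 (11.0 ± 0.467), Irgm2 (6.48 ± 0.495) and Iigp1 (4.72 ± 0.525) down to Tgtp1 (1.71 ± 0.137). Only Tgtp2 and Irgm1 overlapped among neighbours in this order. In Hemgn-/- libraries Igtp (76.7 ± 0.641 FPKM) and Gm12250 (70.8 ± 3.38) were still first and second, followed by Tgtp2 (19.32 to 22.83 over its libraries), Irgm1 (15.8 ± 0.520), Iigp1 (10.5 ± 0.616), Irgm2 (10.0 ± 0.187) and Tgtp1 (2.85 ± 0.382). Tgtp2 no longer overlapped Irgm1, while Iigp1 and Irgm2 overlapped each other. The regulatory genes summed to 65.4, 75.7 and 73.6 FPKM in WT and to 102.5, 102.0 and 103.1 FPKM in Hemgn-/- libraries. The effector genes summed to 42.2, 43.3 and 43.0 FPKM in WT, below the regulatory genes in every library, and to 107.1, 99.8 and 108.8 FPKM in Hemgn-/- libraries, above them in replicates 1 and 3. Gm12250 alone gave 24.94, 26.47 and 23.96 FPKM of the effector sum in WT and 72.42, 66.96 and 73.15 FPKM in Hemgn-/- libraries. Its level rests on 1274 bases of a longer gene and that of Iigp1 on another gene model, so the order of the sums depends on the gene lengths used.

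**Figure D3:**
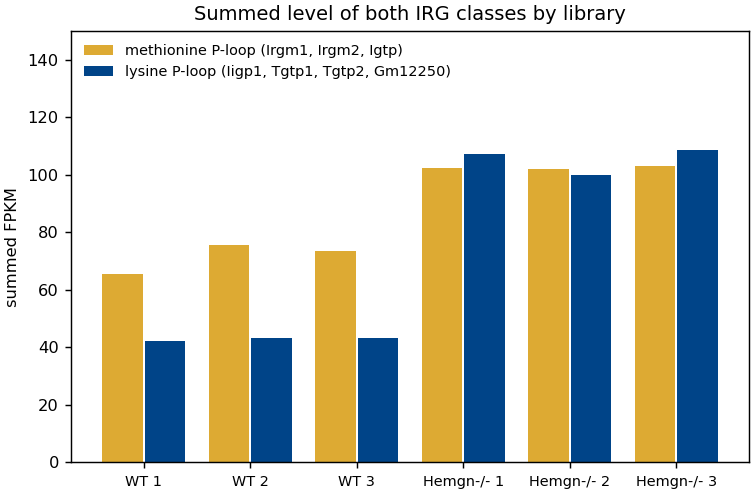
Summed FPKM of the 3 regulatory genes (methionine P-loop) and of the 4 effector genes (lysine P-loop), 1 bar each per library. The effector sum is 42.2 to 43.3 FPKM in WT and 99.8 to 108.8 FPKM in Hemgn-/- libraries, and the regulatory sum 65.4 to 75.7 and 102.0 to 103.1 FPKM. Gm12250 alone gives 23.96 to 26.47 and 66.96 to 73.15 FPKM of the effector sum, and the order of the sums depends on the gene lengths used.

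The log2 fold changes of the regulatory genes lay between 0.48 and 0.56 (median 0.50), and those of the effector genes between 0.50 and 1.46 (median 0.93). The mean log2(FPKM + 1) level of the effector genes minus that of the regulatory genes was -0.98, -1.05 and -1.03 in WT and -0.52, -0.65 and -0.57 in Hemgn-/- libraries, without overlap. Ratios between members do not depend on the scaling of the libraries, and all 21 pairs were compared. Of these, 15 ratios did not overlap between genotypes, as did 25.1% of the ratios of all pairs of tested genes above 0 in every library. They were 9 of the 12 between the branches, 2 of 3 among regulatory genes and 4 of 6 among effector genes. Each of the 15 had a two-sided exact permutation p = 0.1, the smallest that 3 libraries against 3 allow (0.14 after Benjamini-Hochberg adjustment over the 21 pairs), so the design cannot bring a single ratio past the threshold. The ratio that moved furthest on the log2 scale was that of Igtp to Gm12250, from 1.10 ± 0.135 in WT to 0.12 ± 0.060 in Hemgn-/- libraries (SD, n = 3). In linear terms Gm12250 stood at 0.518, 0.449 and 0.434 of the level of Igtp in WT and at 0.936, 0.880 and 0.953 of it in Hemgn-/- libraries. The log2 ratio of Irgm1 to Igtp, by contrast, was -2.29 ± 0.189 and -2.28 ± 0.058, a difference of 0.01 (exact permutation p = 0.8, adjusted 0.8).

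The members' direction did not turn under any of 15 alternative settings: the log2 fold changes ranged from 0.39 to 0.59 for Irgm1, 0.47 to 0.69 for Irgm2, 0.40 to 0.59 for Igtp, 0.74 to 0.96 for Tgtp2, 0.92 to 1.19 for Iigp1, 0.42 to 0.72 for Tgtp1 and 1.36 to 1.57 for Gm12250. Gm12250, Iigp1 and Tgtp2 were called under each of them. Scaling between libraries moved all genes together. With median-ratio scaling the median log2 fold change was 0.01 over all genes tested and 0.47 over the members, and with the same FPKM total in each library (TPM) it was 0.18 and 0.70. Of all calls, 67.6% were higher in Hemgn-/- HSPCs on the deposited values, 46.9% with median-ratio scaling, 51.5% with quantile normalization and 81.5% with TPM. In each of these scalings the same 6 members were called higher.

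**Figure D4:**
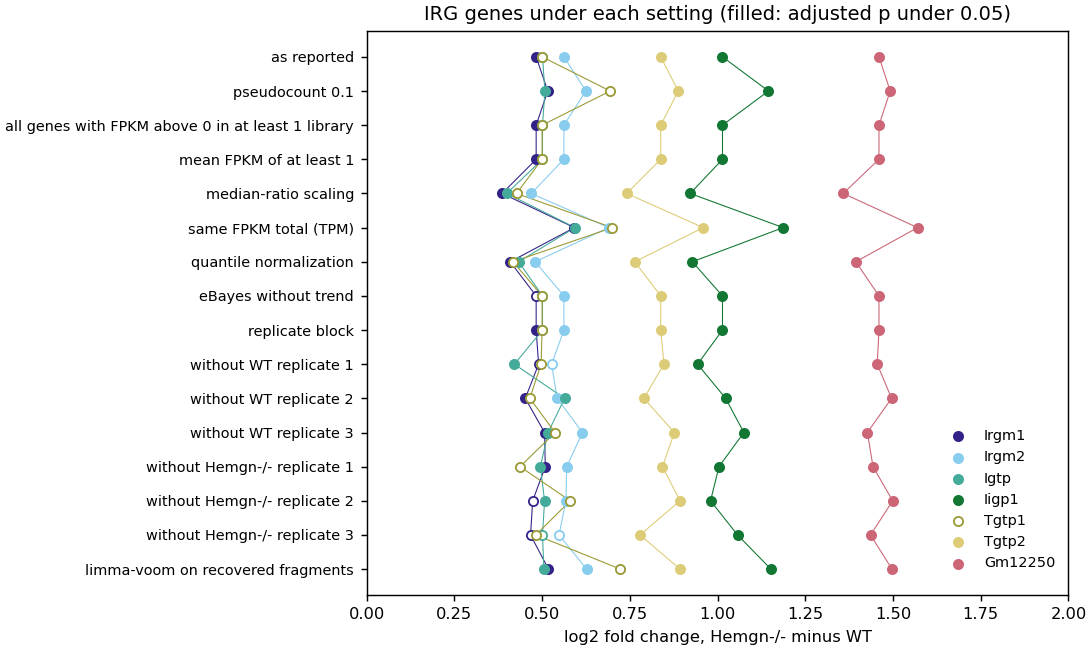
Log2 fold change (Hemgn-/- minus WT) of each IRG gene as reported and under the 15 alternative settings, 1 line per gene, filled where the adjusted p is under 0.05. Every value is above 0. Gm12250, Iigp1 and Tgtp2 are filled under every setting, and Tgtp1 under none.

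All 6 members on chromosome 11 had a promoter entry in RefSeq (GRCm38.p6), each with 250 bases before and 50 bases after the start, and both strands were searched for a pair of motifs of the interferon response. The core of the interferon-stimulated response element (ISRE), read by IRF factors, was taken as GAAA, any 2 bases and GAAA, and the gamma-activated site (GAS) as TTC, any 3 bases and GAA. The matching stretches are shown because all of these genes differed in the same direction, 5′ to 3′ on the strand of the gene, with the matches and nothing else in capitals.
Irgm1, chr11:48871429-48871456, minus strand: tttcaaGAAATAGAAACCGAAActgatt
Irgm2, chr11:58214896-58214928, plus strand: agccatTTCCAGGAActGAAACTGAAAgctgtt
Igtp, chr11:58199505-58199537, plus strand: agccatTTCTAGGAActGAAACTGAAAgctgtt
Tgtp1, chr11:48992308-48992340, minus strand: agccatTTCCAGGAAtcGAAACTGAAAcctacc
Tgtp2, chr11:49064267-49064299, minus strand: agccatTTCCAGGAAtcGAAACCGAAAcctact
Gm12250, chr11:58183746-58183812, plus strand: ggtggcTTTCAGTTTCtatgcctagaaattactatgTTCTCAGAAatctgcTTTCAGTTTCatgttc
The ISRE core was present in 6 of the 6 promoters and in 3.44% of all 32851 RefSeq promoters of the same length. The GAS letters were present in 5 of the 6, with none in the window of Irgm1, and in 8.3% of all promoters, and both motifs together in 0.454%. In Irgm2, Igtp, Tgtp1 and Tgtp2 the GAS match was followed by the ISRE match in the same order and spacing, whereas Irgm1 had a pair of overlapping ISRE matches and Gm12250 an ISRE match on the other strand on each side of a GAS match. The genes with the paired arrangement had log2 fold changes of 0.50 to 0.84, Irgm1 0.48 and Gm12250 1.46. A match of letters is not a bound site, and no binding was measured here.

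The chromosome 11 members fall into a pair of gene clusters. Within 100000 bases of any of the 7 members, 29 other genes were in the table and 20 passed the filter. Of these, 2 had an adjusted p under 0.05 and were higher in Hemgn-/- HSPCs, where 4.37% of all genes tested were called higher and 2.09% lower. Both of these higher neighbours are IRG genes outside the list of members. Ifi47, the IRG named Irgd, which is described here because of its value, was at 98.55, 108.56 and 108.36 FPKM in the WT replicates and at 172.92, 166.66 and 154.54 FPKM in Hemgn-/- replicates (log2 fold change 0.64, SE 0.07, limma adjusted p = 0.0021). Its level was above that of every member in every library. 9930111J21Rik2, which lies between Tgtp1 and Tgtp2, was at 13.36, 13.07 and 13.01 FPKM in the WT replicates and at 22.79, 21.30 and 20.33 FPKM in Hemgn-/- replicates (log2 fold change 0.67, SE 0.09, limma adjusted p = 0.00364). One neighbour, 4930438A08Rik, was called lower, with a log2 fold change of -0.34 (limma adjusted p = 0.028). Neighbours without a GTPase domain, such as Rack1, Cnot8 and Gemin5, had log2 fold changes of 0.10, 0.04 and 0.13 with overlapping groups. Without overlap, 9 of the 20 neighbours were higher and 1 was lower in Hemgn-/- libraries, as were 2634 and 1124 of the 13739 genes tested. Among such neighbours that were not called, beside IRG-like genes, were Trim7 (log2 fold change 0.48), Gm16170 (0.38), Psme2b (0.23) and Gm12248 (0.66), with limma adjusted p = 0.114 to 0.342. The pseudogene BC023105 near Iigp1, also not called, was listed at 0 in every WT library and at 0.50, 0.50 and 1.10 FPKM in Hemgn-/- replicates. Gm16170, Gm12248 and BC023105 passed the filter only through their level in Hemgn-/- libraries, so their place among the higher neighbours is partly set by the filter.

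**Figure D5:**
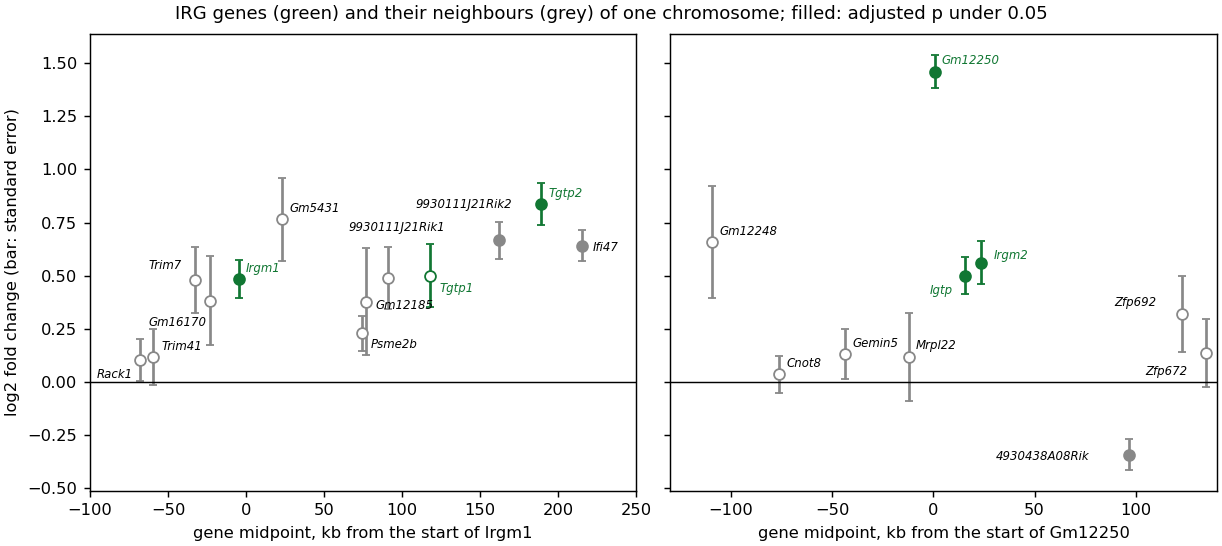
Log2 fold change (Hemgn-/- minus WT, bars of 1 standard error) of the tested genes of the 2 IRG clusters of chromosome 11 against the distance of each gene's midpoint in kb from the start of Irgm1 (left) or Gm12250 (right). IRG members are green, neighbours grey, and filled points have an adjusted p under 0.05: the called neighbours are 9930111J21Rik2, Ifi47 and, below 0, 4930438A08Rik.

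Further IRG-like genes had mixed values. Of 8 such genes outside the list of members, 7 were tested, and limma called 1 higher (9930111J21Rik2) and 0 lower (4.37% and 2.09% of all genes tested). At an unadjusted p under 0.05 from limma, 3 were higher and 0 lower, beside 15.0% and 6.46% of all genes tested. Ifi47 was not on this list and is not in its counts or its median. Gm5431 averaged 1.26 ± 0.465 FPKM over the WT and 2.80 ± 0.487 FPKM over the Hemgn-/- libraries (SD, n = 3), with a log2 fold change of 0.77 and a limma adjusted p = 0.057. 9930111J21Rik1 followed at 9.38 ± 2.02 and 13.4 ± 0.696 FPKM (log2 fold change 0.49, limma adjusted p = 0.0903). On chromosome 18 near Iigp1, the low genes Gm4951 and F830016B08Rik had log2 fold changes of 0.32 and 0.31 with overlapping groups. F830016B08Rik passed the filter only through Hemgn-/- replicate 3 (1.36 FPKM), so its place among the genes tested and in their median is set by that library. Irgc1, a family member of the testis, and Irgq, a divergent member that interferon does not induce, had log2 fold changes of -0.06 and -0.29, also with overlap. Gm4841 did not pass the filter. The median over the 7 genes tested was 0.32.

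The GBPs are larger interferon-induced GTPases that work on the same vacuoles as the IRGs. Of 11 GBP genes, 10 were tested, with a median log2 fold change of 0.60 over the 10. Gbp5, a gene near this median, passed the filter only through its level in Hemgn-/- libraries, so the median is partly set by the filter. Limma called 5 higher and 0 lower in Hemgn-/- HSPCs (4.37% and 2.09% of all genes tested). Among the called genes Gbp2 rose most, from 28.2 ± 2.54 to 61.4 ± 1.81 FPKM (SD, n = 3, log2 fold change 1.10, limma adjusted p = 0.000263). Gbp7 (log2 fold change 0.71), Gbp4 (0.70), Gbp3 (0.69) and Gbp9 (0.50) also rose. Their rises fell between those of Irgm1 and Gm12250. Gbp8 had 0.52 with no overlap but a limma adjusted p = 0.068. Gbp10, Gbp5 and Gbp6 had 0.64, 0.57 and 0.35, with overlapping groups, and Gbp11 had -0.23, and the group means of these 4 low genes reached at most 1.59 FPKM. The log2(FPKM + 1) scale understates differences of such low genes: the ratios of group means were 2.44 for Gbp10 and 2.38 for Gbp5, against 2.18 for Gbp2. Gbp2b did not pass the filter.

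Upstream of the family, Ifng, the one IFN ligand of 4 listed that was in the table, was at 3.10, 2.47 and 2.01 FPKM in the WT replicates and at 3.71, 3.30 and 3.69 FPKM in Hemgn-/- replicates (log2 fold change 0.38, limma adjusted p = 0.193). The 13 receptors, kinases and transcription factors of interferon signalling had a median log2 fold change of 0.37. Of them, limma called 4 higher and 0 lower (4.37% and 2.09% of all genes tested). These were Irf1, a transcription factor that drives IRG promoters, from 48.9 ± 5.47 to 82.6 ± 5.67 FPKM (SD, n = 3, log2 fold change 0.75, limma adjusted p = 0.00384), Irf8, a factor of myeloid and dendritic cells, with 0.75, and the receptor chains Ifngr2 and Ifnar1, with 0.45 each. Ifngr1 had 0.26, Jak1 0.19 and Jak2 -0.12, none of them called. Of 7 inhibitors of the pathway, limma called 3 higher and 0 lower (4.37% and 2.09% of all genes tested). Socs3, an inhibitor of JAK kinases, rose by 0.83 on the log2 scale, Usp18, which dampens the type I receptor, by 0.69 and the phosphatase Ptpn6 by 0.39. Socs1, the main inhibitor of the IFN-γ receptor, had 0.24 and the phosphatase Ptpn2 0.22, and neither was called.

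The regulatory IRGs and the autophagy conjugation system, which attaches LC3 and GABARAP proteins to membranes, both govern where the effectors load. Of 12 conjugation genes tested, 0 were called higher and 1 lower (4.37% and 2.09% of all genes tested), and their median log2 fold change was -0.05. The one called, Map1lc3a, an LC3 gene named after its value was seen, had -0.48 (limma adjusted p = 0.0185). Of 5 genes tested for ubiquitin and its receptors at the vacuole, limma called 0, with 1 higher and 1 lower at an unadjusted p under 0.05 (15.0% and 6.46% of all genes tested). It called 1 with a pseudocount of 0.1, with TPM and without WT replicate 2, and limma-voom on the recovered fragments also called 1.

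The 7 members' common pattern was compared with that of other genes by the root mean square difference of log2(FPKM + 1) values over the 6 libraries, each gene centred on its own mean. The members' mean centred values were -0.43, -0.39 and -0.33 in WT and 0.40, 0.34 and 0.41 in Hemgn-/- libraries. Of 6284 other genes with a mean of at least 5 FPKM, the nearest was Fgd2, an exchange factor for the GTPase Cdc42, with a difference of 0.024. It was at 9.34, 9.68 and 10.02 FPKM in the WT replicates and at 17.23, 17.05 and 16.87 FPKM in Hemgn-/- replicates. Next came Pla2g7, a secreted phospholipase (0.044), Irf8 (0.059), the tripartite-motif gene Trim30b and Dph1, an enzyme of diphthamide synthesis (0.061 each), with log2 fold changes of 0.82, 0.75, 0.78 and 0.75. Genes were selected here for a pattern over these 6 libraries, so the values are descriptions.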

How the data were processed

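RNA-seq libraries of 3 WT and 3 Hemgn-/- replicates were grouped by the genotype in the labels. The authors deposited FPKM values per gene and library, and the values show whole fragments per gene divided by gene length and library total, with no further scaling. The submitters' processing notes name Bowtie2 2.2.3, HISAT2 2.1.0, TopHat2, HTSeq 0.6.0 and GRCm38, with no order or role. How multiply mapped reads were counted and whether counting used strand are not given in the sources used here. With Smart-Seq2 cDNA, which the design text names, fragments are amplified copies and not independent molecules.

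Of the 24965 genes, 24921 matched GENCODE M21 by identifier. Depth was recovered from low FPKM values with M21 exon lengths: of 13472 genes with at most 100 fragments in each library, 95.7% came out whole within 0.05 fragments. Replicates of a group differed by a chi-square per gene of 17.5 to 35.2, beyond sampling noise, so none was counted as a copy. The genes that exceeded 1 FPKM in 1 library or more were compared on log2(FPKM + 1), a pseudocount of 1, with limma 3.58.1 in R 4.3.3 (lmFit, eBayes with a trend, no covariate). P-values are two-sided with Benjamini-Hochberg adjustment over 13739 genes, and fold changes are Hemgn-/- minus WT. The members and lists were chosen with earlier results of these data known, so p-values of members are not independent evidence. Named genes are the members, Hemgn, genes of the IRG-like, GBP and interferon lists, and the 5 genes nearest in profile; any other was named after its value was seen. On simulated data with 200 genes changed 2-fold, 165 of them were found, and 10 unchanged genes were called, of 12383 genes tested. The simulation gave every gene the same fixed spread between replicates, which was not estimated from these libraries. Apart from Iigp1 and Gm12250 the members differed by less than 2-fold, so it does not show how often differences of their size are found. Python 3.11.15, scipy 1.17.1 and Biopython 1.88 served for exact tests and sequences. Protein sequences were not used here. One gene of the interferon signalling list is not reported here by name, although it entered the counts and the adjustment over genes.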

Additional observations from a re-analysis of the deposited data

How the results depend on the processing

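The 15 alternatives were a pseudocount of 0.1, 2 other filters, 3 other scalings, a block for the replicate number, eBayes fitted without a trend, limma-voom on recovered fragments and leaving out each library in turn. The 7 members and the sum of Tgtp1 and Tgtp2 kept their direction in each. The count of called members (6) was 3 to 6 with a library left out, and 3 without Hemgn-/- replicate 3. The members past the study's thresholds (3) numbered 5 with a pseudocount of 0.1 and with voom, 7 with TPM, and 3 to 4 with a library left out. All genes called (887) numbered 466 with every gene above 0 FPKM tested, where adjustment ran over 24965 genes, 390 without a trend and 373 to 688 with a library left out; leaving out Hemgn-/- replicate 3 gave 373, Hemgn-/- replicate 2 gave 525, WT replicate 1 gave 470 and WT replicate 3 gave 494. The called genes of the interferon, GBP, IRG-like, autophagy and vacuole lists (14) numbered 23 with TPM, 7 without a trend and 8 to 14 with a library left out, with 8 without Hemgn-/- replicate 3. Without that library the called GBP genes were 3 (5 as reported) and the called receptors, kinases and factors 2 (4 as reported), which also numbered 2 without WT replicate 3. Voom called 7 of the latter and TPM 8. Map1lc3a lost its call in 6 alternatives. The sum of Tgtp1 and Tgtp2 kept its call, with a log2 fold change of 0.77 to 0.89 with a library left out. The causes of these changes were not tested.

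Same-numbered WT and Hemgn-/- libraries did not deviate together (correlations of -0.043, -0.009 and 0.011). With 3 libraries per group, this cannot show whether same-numbered libraries were handled as pairs. With the replicate number as a block, 636 genes and the same 6 members were called, and the log2 fold change of the Tgtp sum was 0.83 (limma adjusted p = 0.00696). The depth is thinnest for Tgtp1, whose WT libraries hold 129, 130 and 165 fragments.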
